A study of Mus musculus with 4 samples.

Results

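Cholesterol is built from acetyl-CoA through the mevalonate pathway, in which isoprenoid units are joined to squalene and squalene is closed into the first sterol, lanosterol. The transcription factor SREBP2, encoded by *Srebf2*, switches the genes of the pathway on together when sterols in the endoplasmic reticulum are low, and the INSIG proteins hold SREBP2 back in that compartment when sterols are plentiful. Proliferating lymphocytes need the pathway for new membrane, and the same precursors feed protein prenylation, ubiquinone and dolichol. The 7 genes described here are *Hmgcs1*, *Idi1*, *Fdft1*, *Sqle*, *Lss* and *Cyp51*, which encode pathway enzymes, and *Insig1*, which encodes the feedback inhibitor. They were taken by symbol from a list of sterol genes regulated by SREBP2, and all 7 were found among the 24421 genes of the table.

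The values come from RNA-seq of thymocytes that carried CD4, CD8 and the activation marker CD69 (CD69+DP cells), sorted from the thymus of adult C57BL/6 mice of 6 weeks. Both groups carried floxed *Foxa1* and *Foxa2* alleles (Foxa1fl/flFoxa2fl/fl). The 2 Foxa1/2cKO samples also carried the CD4Cre transgene, which deletes floxed alleles in T-lineage cells from the DP stage, and the 2 control samples lacked Cre. Per the study's methods each sample was sorted from different mice, and a sort took 2 mice per genotype. The measurements were FPKM, that is fragments scaled to gene length and to sequencing depth. Summed over all genes, the FPKM still differed between samples, from 366871 to 382436, with the highest sum in Foxa1/2cKO 2. Small differences between samples thus depend on the scaling, and other scalings are given further on. Levels of different genes may be compared only as far as the gene length used and the reads assigned to each gene are right.

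The read totals recovered from the steps of the FPKM ranged from 10580473 to 14742586 per sample. Neither *Foxa1* nor *Foxa2* had a read in any sample, which leaves the genotypes unchecked. A count of 0 allows up to 3 reads, or 0.0628 to 0.0871 FPKM for *Foxa1* and 0.0919 to 0.127 for *Foxa2*, counting error only. Of 12 DP thymocyte genes all 12 passed the filter on low values. *Cd4*, *Cd8a*, *Cd8b1*, *Cd69* and *Cd3e* were at 103 to 974 FPKM in every sample. The summed FPKM of 6 B cell genes was 51.8 to 77.9 in control and 55.7 to 107 in Foxa1/2cKO, and that of 8 myeloid genes was 29.8 to 52.6 and 33.6 to 51.3. The 7 erythroid genes summed to at most 2.67, with *Hba-a1*, *Hba-a2*, *Hbb-bs* and *Hbb-bt* listed at 0 throughout, and the 7 thymic epithelial genes to at most 7.34. Foxa1/2cKO 2 stood apart from the other samples on the first principal component, at 28.5 against -11.0 to -7.42.

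Promoter sequences of 5 of the 7 genes, all but *Fdft1* and *Sqle*, were taken from RefSeq on GRCm38.p6, the assembly named mm10 by UCSC. The stretches below are shown because they hold the letters through which sterol genes are classically read. The sterol regulatory element, bound by SREBP, was searched as TCACNCCA and the NF-Y box, bound by the partner factor NF-Y, as CCAAT. Both strands were searched within the 250 bases before the start of each promoter entry. All distances count from that start, which is not the gene start of the coordinates given further on. For *Hmgcs1* and *Lss* the bases after it were not found in an annotated transcript. *Srebf2* is shown beside the others as the gene of the regulator itself. Capitals mark these matches, ATTGG being CCAAT read on the other strand, and each stretch is written 5′ to 3′ on the plus strand, which is the strand of all 4 genes:
Hmgcs1, chr13:119690171-119690250: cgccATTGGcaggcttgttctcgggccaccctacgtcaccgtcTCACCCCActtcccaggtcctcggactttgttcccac
Lss, chr10:76531500-76531579: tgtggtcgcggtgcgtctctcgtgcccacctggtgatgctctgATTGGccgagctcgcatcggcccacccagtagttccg
Insig1, chr5:28071162-28071241: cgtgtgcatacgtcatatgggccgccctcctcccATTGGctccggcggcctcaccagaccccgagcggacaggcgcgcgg
Srebf2, chr15:82147064-82147143: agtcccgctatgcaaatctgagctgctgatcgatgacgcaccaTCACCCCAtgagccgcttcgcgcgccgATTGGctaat

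The *Hmgcs1* stretch ends 101 bases before the start of its promoter entry and holds both motifs, with the sterol element 137 to 130 bases before that start. The *Srebf2* stretch also holds both, with the sterol element 162 to 155 bases before the start. The *Lss* stretch lies 105 to 26 bases before the start and the *Insig1* stretch 250 to 171 bases before it. Of the motifs marked by capitals, both hold only the NF-Y box. Over all 32536 distinct promoter windows of this length, 3.65% held the sterol element and 33.8% the NF-Y box. Of the 5 genes with a window, *Hmgcs1* held the sterol element and the other 4 did not. All 5 held an NF-Y box, and all 5 also held the GC box GGGCGG, which 33.0% of all windows held. An unmarked GC box, read on the other strand as CCGCCC, lies in the *Insig1* stretch shown, 229 to 224 bases before the start. The forkhead core TGTTTAC, the letters read by Foxa proteins and their relatives, was in 3.17% of all windows and in none of the 5. In the stretches shown, no match of 1 motif overlaps a match of another. A match of letters is a description and does not show binding, and the lack of one says only that these letters are not in the window.

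The levels of the 7 genes were moderate to low in these cells. *Hmgcs1* was highest in every sample, at 12.2 to 13.1 FPKM, a level near the middle of the genes tested (percentile 45.3). *Insig1* came next in 3 samples at 7.25 to 8.53 FPKM, with *Sqle* (4.79 to 8.58), *Fdft1* (6.10 to 7.19) and *Cyp51* (5.22 to 6.79) close to it. The ranges of *Sqle*, *Fdft1* and *Cyp51* over the 4 samples overlapped, as did those of *Insig1* and *Sqle*, so these pairs have no fixed order. *Insig1* was above *Fdft1* and *Cyp51* with no overlap. *Lss* followed at 3.41 to 3.97 FPKM and *Idi1* was lowest in every sample at 0.880 to 1.55 FPKM, in percentile 3.22. The ranges of *Hmgcs1*, *Lss* and *Idi1* overlapped that of no other of the 7.

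**Figure D1:**
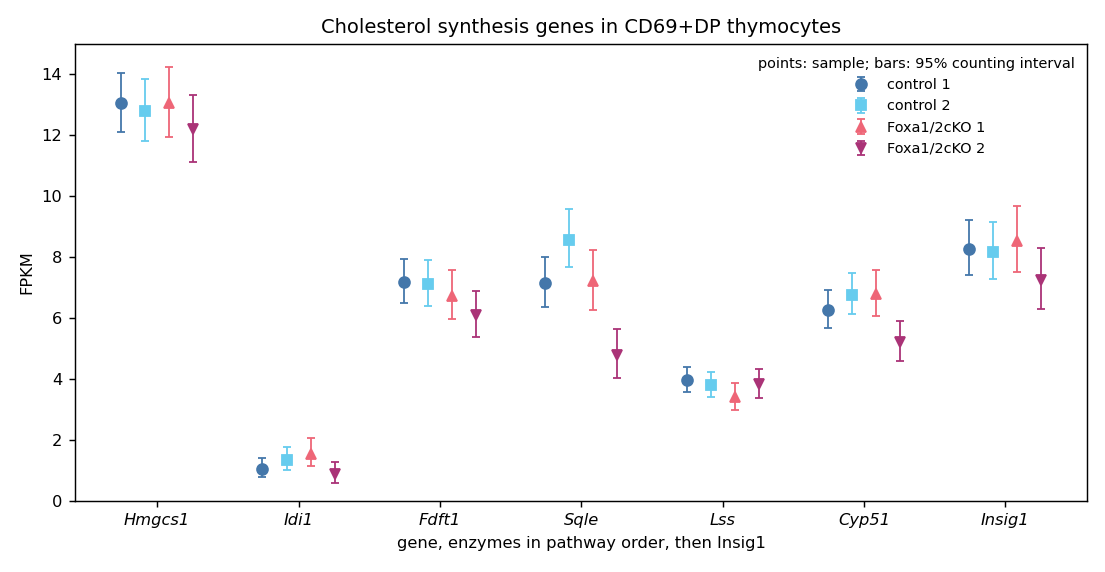
FPKM of the 7 genes in each sample, on a linear axis from 0, with enzymes in pathway order and *Insig1* last. Points are single samples and bars are 95% counting intervals from the recovered reads; only for *Sqle* does the interval of 1 sample, Foxa1/2cKO 2 (4.04 to 5.63), lie clear of those of the other 3.

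The comparison of Foxa1/2cKO with control asks what deletion of *Foxa1* and *Foxa2* does to gene expression in CD69+DP cells. None of the 7 genes passed the test. All 7 passed the filter on low values, which asked for an FPKM of 1 or more in 2 or more samples, and 0 of 7 had an adjusted p under 0.05 from limma, where 1 of 10776 genes tested, or 0.00928%, did. That gene was *2610035D17Rik*, a non-coding RNA named here after its value was seen. An unadjusted p under 0.05 was found for 0 of the 7, against 490 genes, or 4.55%. Their log2 fold changes ran from -0.36 for *Sqle* to 0.0016 for *Idi1*, with a median of -0.081 against 0.0051 over all genes tested. The standard errors were 0.093 to 0.23, and every 95% interval spanned 0, the narrowest reaching from -0.28 to 0.21. For a single gene, exact permutation of these 4 labels gives a two-sided p of 0.333 at best.

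*Hmgcs1* (chr13:119690379-119708260, plus strand of mm10) encodes cytosolic HMG-CoA synthase, an early enzyme of the mevalonate pathway. The controls were at 13.1 and 12.8 FPKM, Foxa1/2cKO 1 at 13.1 and Foxa1/2cKO 2 at 12.2, with 484 to 699 reads behind each value. The first Foxa1/2cKO sample lay between the controls and the second below them. The group means were 12.9 ± 0.175 FPKM for control against 12.6 ± 0.604 for Foxa1/2cKO (SD, n = 2 each). Its log2 fold change was -0.033 with a 95% interval from -0.28 to 0.21, or 0.977-fold with 0.825 to 1.16. This was the enzyme with the smallest standard error of the 7. Of the 50-base stretches of its longest RefSeq-linked transcript 13.6% also occur in the antisense gene *Gm48342*.

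*Idi1* (chr13:8885501-8892451, plus strand) encodes the isomerase that balances the pair of isoprenoid building blocks. The controls were at 1.05 and 1.34 FPKM, Foxa1/2cKO 1 was the highest sample at 1.55 and Foxa1/2cKO 2 the lowest at 0.880. The groups thus overlapped completely, the controls lying inside the range of the Foxa1/2cKO samples. These values rest on 28 to 52 reads per sample, and the counting interval of the highest sample (1.14 to 2.06) met that of the lowest (0.58 to 1.27). The log2 fold change was 0.0016 with a 95% interval from -0.60 to 0.61, the widest of the 7, and its sign changed with the pseudocount and the scaling. Of the 50-base stretches of its longest RefSeq-linked transcript 30.5% also occur in other annotated genes, so its level is uncertain to that extent. Among these genes are the pseudogenes *Gm13502* and *Gm7654*.

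*Fdft1* (chr14:63145150-63179578, minus strand) encodes squalene synthase, the first enzyme committed to sterols. The controls were at 7.19 and 7.13 FPKM, Foxa1/2cKO 1 at 6.74 and Foxa1/2cKO 2 at 6.10. It was the 1 gene of the 7 with both Foxa1/2cKO samples below both controls, a pattern that 17.8% of all genes tested showed. The opposite pattern, both above both controls, was seen in 0 of the 7 and in 18.9% of all genes. The group means were 7.16 ± 0.0423 FPKM for control against 6.42 ± 0.455 for Foxa1/2cKO (SD, n = 2 each), and the latter is 89.6% of the control level. The log2 fold change of -0.14 (standard error 0.11) had an adjusted p of 0.863 from limma. Of the 50-base stretches of its longest RefSeq-linked transcript 30.7% also occur in *Ctsb* or *Gm6781*, so its level is uncertain to that extent. Exons of *Ctsb* on the other strand cover 774 bases of the *Fdft1* exons. The strand setting of the gene counts is not given in the sources used here, while the study's separate exon counts ignored strand. How reads of the overlap were treated is thus not known.

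*Sqle* (chr15:59315077-59331192, plus strand) encodes squalene epoxidase, the oxygen-dependent step that follows. Control 1 was at 7.15 FPKM, control 2 at 8.58, Foxa1/2cKO 1 at 7.21 and Foxa1/2cKO 2 at 4.79, with 146 to 320 reads behind each value. Foxa1/2cKO 1 lay between the controls, and the low mean of the group comes from Foxa1/2cKO 2. The group means were 7.86 ± 1.01 FPKM for control against 6.00 ± 1.71 for Foxa1/2cKO (SD, n = 2 each), the latter 76.3% of the control level. *Sqle* had the largest fold change of the 7, -0.36 on the log2 scale (standard error 0.21, 95% interval -0.90 to 0.19). The unadjusted p from limma was 0.149 and the adjusted p 0.863, and by its p the gene ranked 1722 among the 10776. No exon of another annotated gene overlaps its exons. Its longest RefSeq-linked transcript, 2758 bases against 5546 exon bases in all, shares no 50-base stretch with another annotated gene.

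*Lss* (chr10:76531588-76557138, plus strand) encodes lanosterol synthase, which closes the sterol rings. The controls were at 3.97 and 3.79 FPKM, Foxa1/2cKO 1 at 3.41 and Foxa1/2cKO 2 at 3.83. It was the exception in the group, since its lowest sample was Foxa1/2cKO 1, and Foxa1/2cKO 2 lay between the controls. The log2 fold change was -0.081 with a 95% interval from -0.42 to 0.26.

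*Cyp51* (chr5:4081145-4104746, minus strand) encodes the cytochrome P450 that demethylates lanosterol. Control 1 was at 6.28 FPKM, control 2 at 6.77, Foxa1/2cKO 1 at 6.79 and Foxa1/2cKO 2 at 5.22. Foxa1/2cKO 1 was the highest sample and Foxa1/2cKO 2 the lowest, and the counting interval of the latter (4.59 to 5.90) still met that of control 1 (5.68 to 6.92). The log2 fold change was -0.11 with a 95% interval from -0.51 to 0.28.

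*Insig1* (chr5:28071363-28078662, plus strand), itself a target of SREBP2, had an FPKM of 8.28 and 8.18 in the controls. It was at 8.53 in Foxa1/2cKO 1, the highest sample, and at 7.25 in Foxa1/2cKO 2, the lowest. The controls thus differed by far less than the Foxa1/2cKO samples, and the means were 8.23 ± 0.0690 and 7.89 ± 0.908 FPKM (SD, n = 2 each). The log2 fold change was -0.057 with a 95% interval from -0.37 to 0.25.

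Foxa1/2cKO 2 was low for most of the 7 genes. This sample was the lowest of the 4 for 6 of the 7 genes, the exception being *Lss*, and for 33.3% of all genes tested. Summed over the 7, control 1 had 47.0 FPKM, control 2 had 48.6, Foxa1/2cKO 1 had 47.3 and Foxa1/2cKO 2 had 40.3. On log2(FPKM + 1) and against the mean of the controls, the median of the 7 was 0.012 for Foxa1/2cKO 1 and -0.20 for Foxa1/2cKO 2. Over all genes tested these medians were -0.0088 and 0.022. The gap between the Foxa1/2cKO samples exceeded that between the controls for 7 of the 7 genes, and for 76.5% of all genes. In these bulk samples a smaller number of cells of a type and less RNA per cell cannot be told apart.

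Leaving out either Foxa1/2cKO sample moves each fold change to opposite sides of its value from all samples, by construction. The fold changes below thus restate how far each Foxa1/2cKO sample lay from the controls and are no separate result. Without Foxa1/2cKO 1 all 7 genes were lower in Foxa1/2cKO, with a median of -0.20. *Sqle* then passed the test, with a log2 fold change of -0.61 and an adjusted p of 0.0224 from limma, in a fit that called 2559 genes in all. That fit assumes that the lone Foxa1/2cKO sample varies as the controls do. Without Foxa1/2cKO 2 the median was 0.012, 4 of the 7 genes were higher and 0 passed, where 19 genes passed in all. In that fit *Hmgcs1* (0.012), *Cyp51* (0.051) and *Insig1* (0.047) changed sign against the fit of all samples, *Idi1* was at 0.22, and *Fdft1* (-0.077), *Sqle* (-0.11) and *Lss* (-0.15) were still lower.

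**Figure D2:**
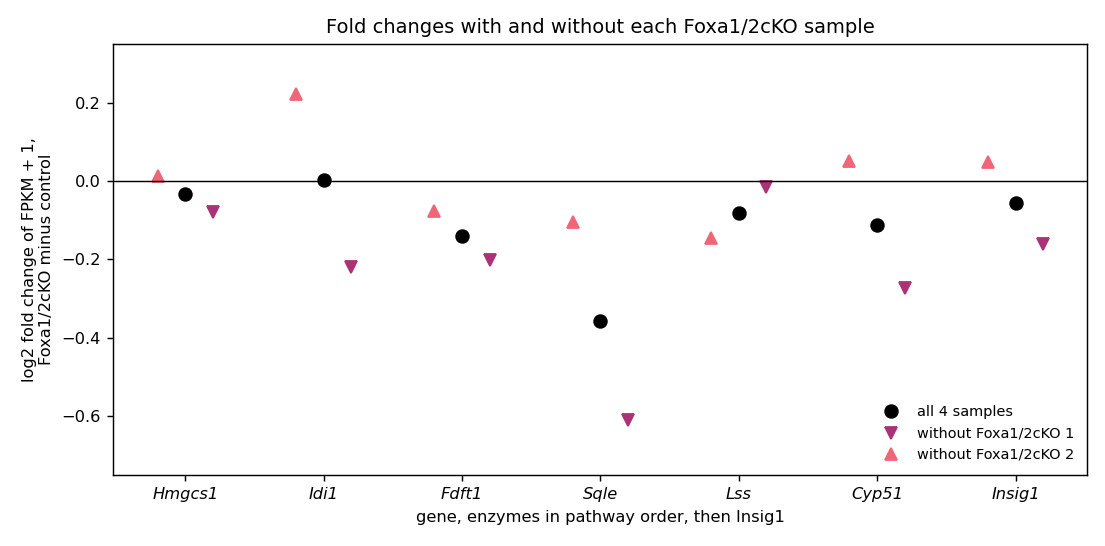
Log2 fold change of FPKM + 1, Foxa1/2cKO minus control, for each gene from all 4 samples and with either Foxa1/2cKO sample left out. Without Foxa1/2cKO 1 all 7 lie below 0, down to -0.61 for *Sqle*, and without Foxa1/2cKO 2 they lie on both sides, from -0.15 for *Lss* to 0.22 for *Idi1*.

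Genes of cell division were also low in Foxa1/2cKO 2. All 14 genes of a cycling list, among them *Mki67* and *Top2a*, had their lowest value in this sample. Summed over the list, control 1 had 917 FPKM, control 2 had 965, Foxa1/2cKO 1 had 1007 and Foxa1/2cKO 2 had 417. The median against the controls was -1.33 on the log2 scale in Foxa1/2cKO 2 and 0.0051 in Foxa1/2cKO 1. Summed DP thymocyte genes were highest in the same sample, at 5595 FPKM against 4435 to 4712 in the others. Of these 12 genes 8 were highest there, where 40.5% of all genes were. *Ptcra*, named after its values were seen, was lowest there, at 3.23 FPKM against 7.44 to 11.9. The part of the cycling genes in the low sterol gene values of Foxa1/2cKO 2 was not tested.

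**Figure D3:**
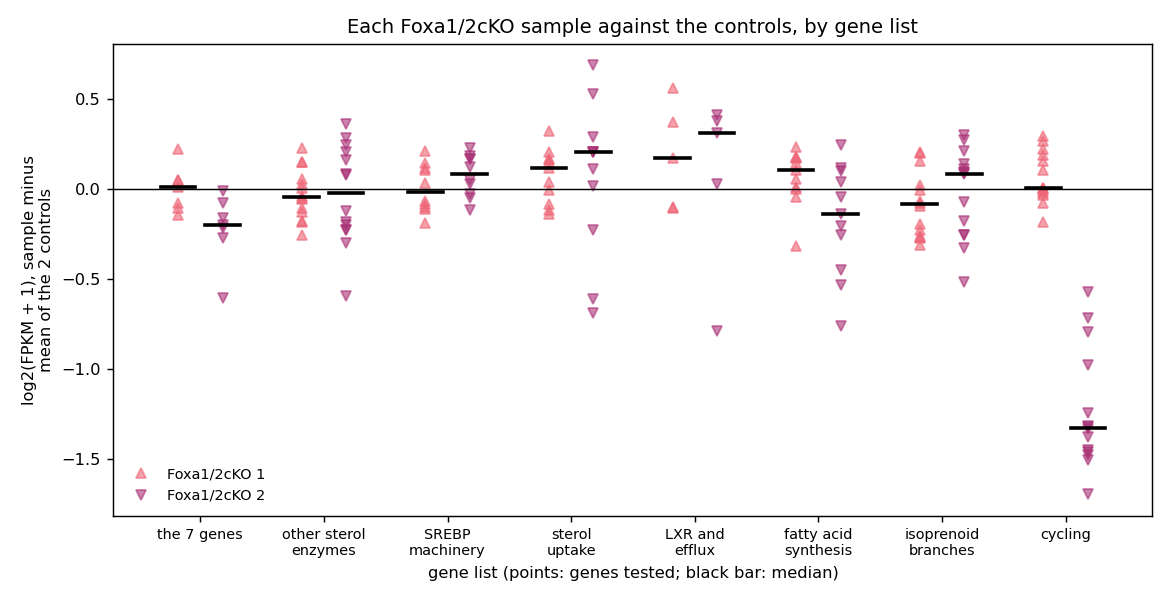
Each Foxa1/2cKO sample against the mean of the 2 controls on log2(FPKM + 1), by gene list, with a point for each gene tested and a black bar at the median. In Foxa1/2cKO 2 the 7 genes have a median of -0.20 and the cycling genes one of -1.33, while both lists are near 0 in Foxa1/2cKO 1.

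The other enzymes of sterol synthesis went both ways. Of 14 such genes, all tested, 7 were higher and 7 lower in Foxa1/2cKO, and 0 had an unadjusted p under 0.05. Their median log2 fold change was 0.0049, and Foxa1/2cKO 2 was the lowest sample for 6 of the 14 and the highest for 5, where over all genes these shares were 33.3% and 40.5%. The groups were apart in 7 of them, with Foxa1/2cKO above control in 3 and below in 4, where 18.9% and 17.8% of all genes tested did so. The sum over all 20 enzymes was 236 and 240 FPKM for the controls, 232 for Foxa1/2cKO 1 and 242 for Foxa1/2cKO 2. The difference between the 7 genes and these 14 was not tested.

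Along the early pathway, *Acat2*, which joins acetyl-CoA units at the entry, was at 10.1 and 10.3 against 9.41 and 8.86 FPKM. The mevalonate kinase gene *Mvk* was at 8.22 and 8.34 against 7.49 and 6.92 FPKM. In both, the Foxa1/2cKO samples were below the controls, with log2 fold changes of -0.15 and -0.18. The next steps, *Pmvk* (-0.18) and *Mvd* (-0.098), had overlapping groups, as did *Fdps* (0.097), the farnesyl diphosphate synthase, at 24.5 to 30.2 FPKM.

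After lanosterol, the values went both ways. *Tm7sf2*, a sterol reductase, was at 4.97 and 5.68 FPKM in control and at 4.57 and 3.17 in Foxa1/2cKO, the lowest fold change of the 14 (-0.39, 95% interval -0.87 to 0.096). *Sc5d*, a sterol desaturase, was at 11.4 and 10.5 FPKM in control and at 12.97 and 13.5 in Foxa1/2cKO, the highest of the 14 (0.25, 95% interval -0.0026 to 0.51). Both groups were apart in these 2 genes, in opposite directions. The groups were also apart for the demethylation enzyme *Nsdhl* (0.13), at 7.17 and 7.64 FPKM in control and at 7.73 and 8.70 in Foxa1/2cKO. The demethylation enzymes *Msmo1* (0.060) and *Hsd17b7* (-0.041) and the isomerase *Ebp* (0.055) had small fold changes and overlapping groups. Samples differed more than groups for *Dhcr7*, with 29.5 and 29.6 FPKM for the controls, 24.6 for Foxa1/2cKO 1 and 38.2 for Foxa1/2cKO 2.

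**Figure D4:**
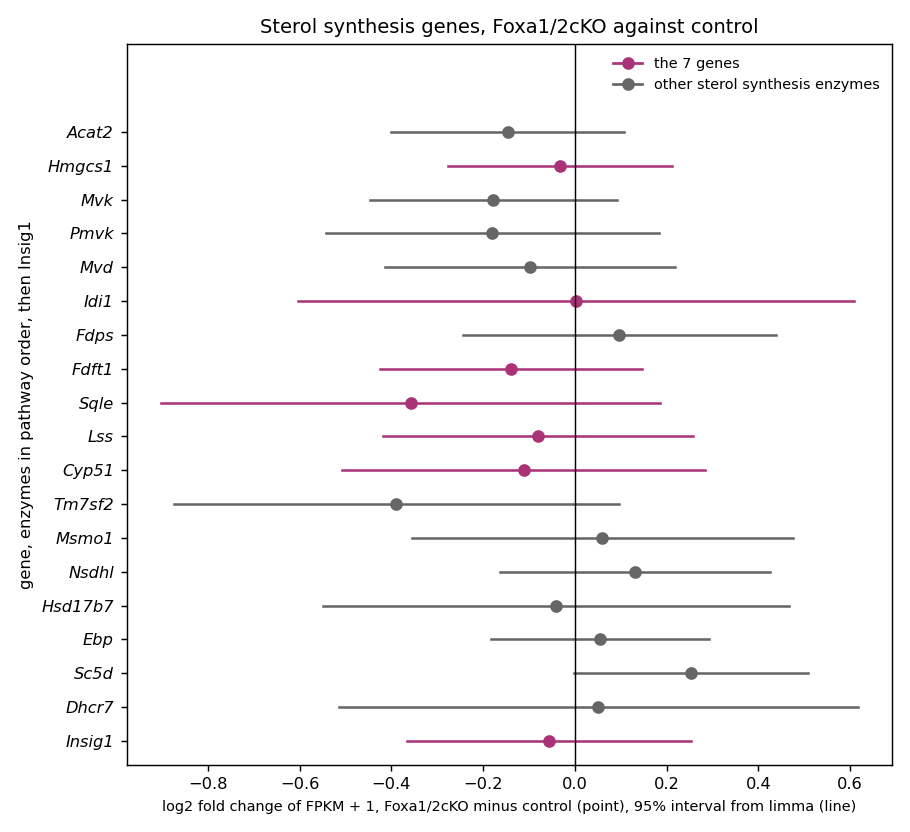
Log2 fold change of FPKM + 1, Foxa1/2cKO minus control, with its 95% interval from limma, for the 7 genes and 12 of the other enzymes of sterol synthesis. Every interval spans 0, and the points run from -0.39 for *Tm7sf2* to 0.25 for *Sc5d*.

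Among the genes that control the pathway, *Srebf2* and *Srebf1* were above every one of its 20 enzymes in each sample. Of 10 genes of the SREBP machinery, 7 were higher and 3 lower, with 0 unadjusted p under 0.05 and a median of 0.044. *Srebf2* was at 73.5 and 68.4 FPKM in control and at 72.5 and 73.2 in Foxa1/2cKO, so that the groups overlapped (log2 fold change 0.040, 95% interval -0.18 to 0.26). *Srebf1*, which encodes the factor for fatty acid genes, was at 51.7 and 55.0 against 57.9 and 58.0 FPKM (0.12), and *Scap*, the sterol sensor, at 33.3 and 33.0 against 31.6 and 32.4 (-0.049). *Insig2*, the relative of *Insig1*, was at 10.5 and 11.2 FPKM in control, while Foxa1/2cKO 1 had 10.2 and Foxa1/2cKO 2 had 12.8. In Foxa1/2cKO 2 the 2 INSIG genes thus stood on opposite sides of the controls. The list ran from *Erlin1* (-0.15), a sterol-binding protein of the endoplasmic reticulum, to *Rnf139* (0.20), a ubiquitin ligase of the same membrane.

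In sterol uptake and trafficking, 11 of 13 genes were tested, 7 higher and 4 lower, with a median of 0.045. *Soat1*, which esterifies cholesterol for storage, was at 17.2 and 16.7 FPKM in control and at 21.4 and 20.9 in Foxa1/2cKO. Its groups were apart, with a log2 fold change of 0.31 (standard error 0.085, unadjusted p = 0.0177 and adjusted p = 0.863 from limma). *Lipa*, the lysosomal lipase, had the highest fold change of the list at 0.36, with 79.7 and 80.7 FPKM for the controls, 82.3 for Foxa1/2cKO 1 and 130 for Foxa1/2cKO 2.

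Of the 9 genes of LXR and sterol efflux, 5 were tested, 3 higher and 2 lower, with a median of 0.10. *Abca1*, the exporter of cholesterol, was at 4.38 and 3.98 FPKM in control and at 6.64 and 5.89 in Foxa1/2cKO. Its groups were also apart, with a log2 fold change of 0.49 (standard error 0.12, unadjusted p = 0.01295 and adjusted p = 0.863 from limma). *Abcg1*, a second exporter, was at 29.2 and 30.3 against 33.6 and 38.9 FPKM (0.27). *Mylip*, a ubiquitin ligase induced by LXR, had overlapping groups (-0.041), and *Apoe* varied within both groups from 31.3 to 71.2 FPKM (-0.21).

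Fatty acid synthesis, driven by the related factor SREBP1, had 11 of 13 genes tested, 5 higher and 6 lower, with a median of -0.0038. *Fads1*, a desaturase of long fatty acids, was at 15.4 and 15.7 FPKM in control and at 12.3 and 10.4 in Foxa1/2cKO. Its groups were apart, with a log2 fold change of -0.43 (standard error 0.11, unadjusted p = 0.0144 and adjusted p = 0.863 from limma), and *Acss2*, an acetyl-CoA synthetase, was at the other end of the list at 0.17.

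In the branches that lead from the same isoprenoids to ubiquinone, dolichol and prenylated proteins, 14 of 14 genes were tested, 6 higher and 8 lower, with a median of -0.041. *Coq2*, which attaches the side chain of ubiquinone, was at 19.5 and 18.2 FPKM in control and at 14.99 and 12.8 in Foxa1/2cKO (-0.42, unadjusted p = 0.0161 from limma). *Dhdds*, of dolichol synthesis, was at 17.9 and 19.0 against 15.1 and 15.3 FPKM (-0.26, unadjusted p = 0.0336 from limma). *Ggps1*, which makes the lipid for geranylgeranylation, had the highest fold change of the list at 0.23. Across these 5 lists, 5 of the 51 genes tested had an unadjusted p under 0.05, where 4.55% of all genes did: *Soat1*, *Abca1*, *Fads1*, *Coq2* and *Dhdds*. With adjustment by limma 0 of the 51 passed.

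The mean profile of the 7 genes over the 4 samples, each gene centred on its own mean of log2(FPKM + 1), stood at 0.026 for control 1, 0.085 for control 2, 0.056 for Foxa1/2cKO 1 and -0.17 for Foxa1/2cKO 2. *Cyp51* and *Insig1* lay nearest to it, both with a root mean square distance of 0.038, and *Sqle* (0.17) and *Lss* (0.13) farthest. Outside all lists, the 5 tested genes with the most similar profile were *Rdx*, *Rcan1*, *Nop16*, *Rplp0* and *Mphosph6*, at distances of 0.0059 to 0.011, where the median gene was at 0.16. *Rdx*, the closest, was at 39.8 and 41.4 FPKM in control, while Foxa1/2cKO 1 had 40.2 and Foxa1/2cKO 2 had 34.4. This likeness is over 4 samples, which all the genes share.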

How the data were processed

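RNA from 4 sorted CD69+DP samples was sequenced on the NextSeq 500. The authors aligned reads to mm10 with RefSeq genes, counted them with HTSeq in union mode and tested them with DESeq2. The submitters' notes also name TopHat and Picard. The deposited values are the authors' FPKM per gene and sample, and the step from counts to FPKM is not given in the sources used here. No values of the authors' own comparisons were used.

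FPKM were tested with limma 3.58.1 in R 4.3.3 on log2(FPKM + 1) with a mean-variance trend, over the 10776 genes that reached an FPKM of 1 in 2 or more samples. P-values were adjusted over all of them by Benjamini-Hochberg, with 0.05 as the threshold. A pseudocount of 1 understates the change of low genes such as *Idi1*. Whole reads were recovered from the steps of the FPKM for 100% of the 16069 genes above 0, up to a common divisor; for 2.73% of genes over 50 reads, *Sqle* among them, they were multiplied to match the annotated length. Counting intervals (exact Poisson, 95%) cover counting error only. Genes were placed with GENCODE M21 on mm10, and 50-base stretches of annotated exons shared with other genes were counted on either strand. The fit was also run on simulated data in which set genes had been changed. That simulation gave all genes and samples the same spread setting and held no outlying sample. It therefore says nothing on how the fit handles a sample that stands apart, such as Foxa1/2cKO 2. Tables used pandas 2.3.3, numpy 2.4.6 and scipy 1.17.1, and plots used matplotlib 3.10.9, in Python 3.11.15.

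The 7 genes and all lists were chosen with earlier results of these data known, so no list was tested. Named were the 7 genes, the other sterol synthesis enzymes, in each other pathway list the genes with an unadjusted p under 0.05, the highest and the lowest fold change and the main regulators, *Foxa1* and *Foxa2*, and the 5 genes outside all lists nearest to the mean profile of the 7 in root mean square distance. The results of 3 genes of these lists are not reported here; counts, sums and medians of the lists include them. A list of dissociation stress genes summed to 712 to 831 FPKM in control and 679 to 787 in Foxa1/2cKO. Alternatives were a pseudocount of 0.1, no filter, upper-quartile scaling, a replicate block, limma-voom on recovered reads, scaling to all recovered reads, and each sample left out.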

Additional observations from a re-analysis of the deposited data

How the results depend on the processing

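Each of the 7 genes was recomputed under 10 alternatives, and 60 of the 70 values kept their sign and their side of the threshold. Neither the filter nor the replicate block can change a fold change of these genes, so their signs there were fixed in advance. Most alternatives called 0 genes in all, so the side of the threshold had little room to change. The count is therefore a weak measure of stability. *Idi1* turned below 0 with a pseudocount of 0.1 (-0.014), upper-quartile scaling (-0.0068), limma-voom on recovered reads (-0.054) and scaling to all recovered reads (-0.014). When single samples were left out, log2 fold changes ran from -0.078 to 0.012 for *Hmgcs1*, from -0.61 to -0.11 for *Sqle*, from -0.22 to 0.22 for *Idi1*, from -0.27 to 0.051 for *Cyp51*, from -0.16 to 0.047 for *Insig1*, from -0.20 to -0.077 for *Fdft1* and from -0.15 to -0.015 for *Lss*. *Lss* was nearest 0 without Foxa1/2cKO 1, where the 6 others were lowest. The median of the 7 ran from -0.20 to 0.012 and that of the 14 other enzymes from -0.062 to -0.010. The latter, at 0.0049 with all samples, was -0.011 with upper-quartile scaling, -0.048 with limma-voom and -0.022 with scaling to all recovered reads. These scalings moved the median of all genes to -0.013, -0.030 and -0.026. The lowest adjusted p from limma among these values was 0.0224, for *Sqle* without Foxa1/2cKO 1, and all others were 0.120 or more. The number of genes called, 1 with all samples, was 0 with a pseudocount of 0.1, no filter, upper-quartile scaling, limma-voom and scaling to all recovered reads, where limma gave 477, 802, 531, 557 and 535 unadjusted p under 0.05. It ran from 0 to 2559 with each sample left out: 0 with control 1 or control 2 left out (116 and 73 unadjusted p under 0.05), 2559 without Foxa1/2cKO 1 and 19 without Foxa1/2cKO 2. The cause of these shifts was not tested.

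The labels do not say whether equal replicate numbers mark the same sort. Same-numbered deviations from the group means had a correlation of -0.059 across genes. With so few samples, this value cannot show whether sorts were shared. With the replicate number as a block, 1 gene was called and 378 had an unadjusted p under 0.05 against 490. In this balanced design the block cannot change a fold change, so *Sqle* is at -0.36 in both fits by construction, and none of the 7 genes was called. *Idi1* with 28 to 52 reads per sample is the gene for which depth limits precision most.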
